A study of Mus musculus with 16 samples.

Results

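Smad4 restoration was examined in tumors growing in the pancreas, as the comparison of 3 samples with Smad4 restored (Panc_ON) against 3 samples with Smad4 kept off (Panc_OFF), 6 of the 16 samples of the series. The members were taken from the sample titles. Chromatin accessibility was measured by ATAC-seq, in which a transposase cuts open DNA and the number of sequenced cuts in a region (a peak) reports how accessible it is, at 136630 nuclear peaks. Tumor cells came from KC-shSmad4 mice, in which Ptf1a-Cre acts in the pancreatic lineage and switches on, among other alleles, a constitutive mKate2 reporter with rtTA3 at Rosa26, and a doxycycline (Dox)-inducible, GFP-linked short hairpin RNA (shRNA) against Smad4 sits in a cassette at the Col1a1 locus. Cell lines from such primary tumors were injected into the pancreas of female Foxn1nu mice aged 6 to 8 weeks, which lack T cells, on Dox food. Panc_OFF hosts stayed on Dox, whereas Panc_ON hosts were taken off it 4 weeks after injection and killed 14 days later, and mKate2-positive cells were sorted. Both groups thus came from the same mouse model and had both grown under Smad4 depletion, and loss of Dox cannot be told apart from return of Smad4. Each sample was a separate mouse, but the labels do not give the cell line or the hairpin (the model has 2) behind it.

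Smad4 is the partner that receptor-activated Smad proteins need in order to act on DNA downstream of TGF-beta, activin and BMP receptors. It binds short CAGAC-type sites weakly and is usually recruited by other DNA-binding factors such as AP-1, RUNX, KLF and FOX proteins. Loss of SMAD4 is frequent in pancreatic ductal adenocarcinoma, and in pancreatic epithelium TGF-beta signaling through Smad4 is known for growth arrest and for loss of epithelial features. HNF4, GATA and ETS family factors such as Elf3 and Ehf maintain the identity of pancreatic and gastrointestinal epithelium.

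Central 150-base stretches of 6 called peaks, read from the plus strand of mm10, show the kinds of sequence the results below refer to. The first pair are the peak and the promoter peak of smallest p among those that fell upon restoration, with KLF (CCNCNCCC) and RUNX (TGTGGT) letters in capitals on either strand.
Gli2 intron, lower, chr1:119022595-119022744: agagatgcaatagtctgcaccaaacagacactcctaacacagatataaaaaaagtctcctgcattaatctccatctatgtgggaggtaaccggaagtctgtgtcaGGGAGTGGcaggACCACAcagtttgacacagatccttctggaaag
Iffo2 promoter, lower, chr4:139532328-139532477: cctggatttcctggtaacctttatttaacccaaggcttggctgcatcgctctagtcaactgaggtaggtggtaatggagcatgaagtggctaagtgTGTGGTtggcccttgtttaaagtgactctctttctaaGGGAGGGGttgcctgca
Next come 3 peaks that rose and hold the AP-1 letters TGANTCA, in capitals, in this stretch. The Lancl3 peak is wide and reaches the start site, but its centre, shown here, lies 1638 bp from it.
Lancl3 promoter, higher, chrX:9201465-9201614: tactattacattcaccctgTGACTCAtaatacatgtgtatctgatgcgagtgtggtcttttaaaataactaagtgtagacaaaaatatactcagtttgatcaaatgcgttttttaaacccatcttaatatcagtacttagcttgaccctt
Lamc1 intron, higher, chr1:153304700-153304849: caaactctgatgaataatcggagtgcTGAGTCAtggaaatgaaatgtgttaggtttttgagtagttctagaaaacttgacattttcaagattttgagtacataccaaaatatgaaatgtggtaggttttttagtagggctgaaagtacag
Syk distal peak, higher, chr13:52659207-52659356: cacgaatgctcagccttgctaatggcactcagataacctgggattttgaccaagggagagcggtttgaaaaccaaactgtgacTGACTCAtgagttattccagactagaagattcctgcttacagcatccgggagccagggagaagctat
The last fell and holds the HNF4 letters CAAAGTCCA, again in capitals.
Crot distal peak, lower, chr5:9040794-9040943: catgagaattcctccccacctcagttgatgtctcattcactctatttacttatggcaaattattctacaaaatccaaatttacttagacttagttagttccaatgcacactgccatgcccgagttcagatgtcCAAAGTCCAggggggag

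The Dox labels were checked at the shRNA cassette, which the model carries beside Col1a1. The peak just past the 3′ end of Col1a1 (mm10 chromosome 11, 94953389 to 94956222) had normalised counts (reads in the peak after scaling for depth) of 1130, 1140 and 1340 in Panc_OFF and 658, 442 and 460 in Panc_ON. All 3 Panc_ON values lay below all 3 Panc_OFF values, and the log2 fold change was -1.23 ± 0.17 (SE; limma adjusted p = 0.00963). The Smad4 gene itself gave no such check, since an shRNA acts on RNA. Its promoter peak stood at 767, 762 and 711 in Panc_OFF and 686, 738 and 683 in Panc_ON (limma log2 fold change -0.09 ± 0.10, adjusted p = 0.684, and 0.08 after a correction for GC content). The smallest adjusted p among its 9 peaks was 0.114, at a weak peak.

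Reads in peaks numbered 23.0 M to 38.2 M per pancreas sample, and the mitochondrial row held 1.80% to 2.60% of them. One library stood apart. Panc_ON_3 correlated with the other Panc_ON samples at Spearman 0.896 and 0.901 across peaks, no higher than with Panc_OFF_1 (0.911), whereas Panc_ON_1 and Panc_ON_2 correlated at 0.968 and the Panc_OFF samples among themselves at 0.963 to 0.967. The tie of peak level to GC content also differed, with Spearman -0.22 in Panc_ON_3 and -0.15 in Panc_ON_2 against -0.03 in Panc_ON_1 and -0.05 to 0.05 in Panc_OFF. Promoter peaks held 44.2%, 44.0% and 43.3% of reads in Panc_OFF and 43.5%, 41.6% and 40.1% in Panc_ON. The part of these differences in the results was not tested, and counts without Panc_ON_3 stand beside the main counts. The labelled cell type was read from the start sites of marker genes. Among peaks ranked per kb, the start-site peaks of the ductal and progenitor genes Krt18, Krt19, Pdx1, Sox9 and Gata6 lay at the 77.8 to 96.0 percentile and that of Epcam at 47.4. Peaks nearest acinar genes ranged from 5.73 (Ptf1a, 3860 bp away) over 45.1 (Cel) and 56.4 (Cpa1) to 78.3 (Rbpjl). Peaks nearest stromal, endothelial and immune genes were not uniformly low either, with Pdgfrb at 94.8, Dcn at 71.6, Csf1r at 60.7, Pecam1 at 57.9 and Cdh5 at 6.58. The part of such cells in the results was not tested.

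After restoration more peaks were called lower than higher. A peak was called where its log2 fold change was 0.58 or more in either direction with a limma adjusted p up to 0.1, and 4675 peaks were (3.42% of those tested). Of these, 4177 were lower in Panc_ON (3.06% of all peaks) and 498 were higher (0.364%). Lower calls went from a median of 161 normalised counts in Panc_OFF to 74.5 in Panc_ON, with a median log2 fold change of -1.09 (quartiles -1.36 and -0.87, lowest -3.84). Higher calls went from 37.7 to 103, with a median of 1.29 (quartiles 0.91 and 1.86, highest 3.30), and the median of all peaks was 0.04. Over all peaks the median normalised count was 56.2 in Panc_OFF and 59.9 in Panc_ON. Irrespective of calls, the 3 Panc_ON values lay wholly below the 3 Panc_OFF values at 13.3% of all peaks and wholly above them at 12.2%.

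**Figure D1:**
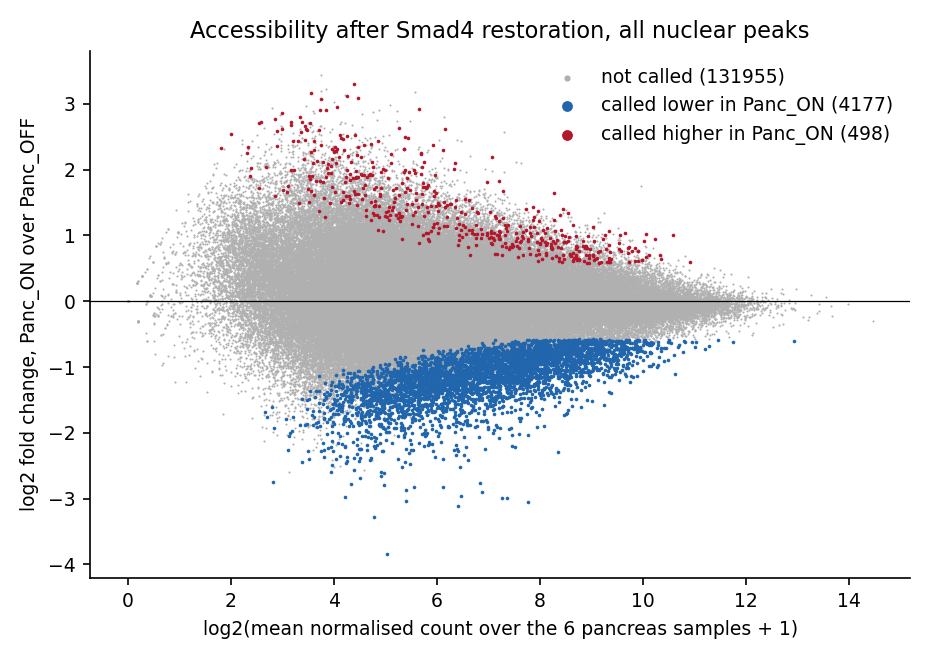
Log2 fold change of Panc_ON over Panc_OFF (y axis) against log2 of the mean normalised count over the 6 pancreas samples plus 1 (x axis) for every nuclear peak, with the 4177 lower calls in blue and the 498 higher calls in red. Lower calls spread over most of the range of counts, and higher calls with log2 fold changes above 2 sit on the left, among peaks of low count.

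The size of the called set depended on single mice. Without Panc_ON_3, 4471 peaks were lower and 407 higher, and 67.6% of the first set of calls was kept. Leaving out any other mouse cut the set far more. Without Panc_OFF_2, 443 lower and 10 higher calls remained, and without Panc_OFF_1, Panc_OFF_3, Panc_ON_1 or Panc_ON_2 the totals were 1241, 1694, 1686 and 1840. Lower calls outnumbered higher calls under each of the 18 other settings tried, from 2.21% to 35.7% of calls being higher, the last when the pancreas groups were fitted alone (3780 lower and 2099 higher). DESeq2 on recovered reads called 6673 lower and 2621 higher. In no setting did a called peak take the other sign.

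The 10 lower peaks of smallest p were taken among calls without overlap between groups, and each lay in an intron or exon or between genes. The strongest was in an intron of Gli2, a transcription factor of the Hedgehog pathway, 30403 bp from its start site (chromosome 1, 119022124 to 119023216). It had normalised counts of 453, 369 and 330 in Panc_OFF and 29.3, 74.3 and 42.2 in Panc_ON. The groups were far apart, with a log2 fold change of -3.05 ± 0.31 (limma adjusted p = 0.00383). A peak 9648 bp from Dusp16, a phosphatase of stress-activated MAP kinases, went from 287, 331 and 309 to 83.6, 74.3 and 69.7 (-2.01 ± 0.23, adjusted p = 0.00853). An intronic peak of Chrdl2, a chordin-like binder of BMPs, went from 522, 618 and 475 to 107, 121 and 100 (-2.28 ± 0.29). Replicates within a group differed by less than the gap between groups at each of these peaks, though peaks with overlapping groups had been left out beforehand.

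Coactivator, Hippo pathway and transporter genes followed. The intronic peak of Eya2, a transcriptional coactivator with phosphatase activity, stood at 235, 251 and 223 in Panc_OFF and 53.3, 56.9 and 56.0 in Panc_ON (-2.07 ± 0.27), so the Panc_ON values were almost equal. In Wwc1, which encodes the Hippo pathway protein KIBRA, an intronic peak went from 348, 306 and 313 to 129, 104 and 144 (-1.36 ± 0.18). The transporter genes Slc16a13 (monocarboxylate family) and Slc6a19 (neutral amino acids) each had a lower exonic peak, at -2.27 ± 0.29 and -1.66 ± 0.22. Akap9, a kinase anchoring protein (-2.36 ± 0.29), Gm5678 (-2.16 ± 0.28) and the lectin receptor gene Clec9a (-1.40 ± 0.18) completed the 10 (limma adjusted p = 0.00963 for each gene after Dusp16). All 10 stayed called when any 1 of the 6 mice was left out, with adjusted p of at most 0.0697.

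**Figure D2:**
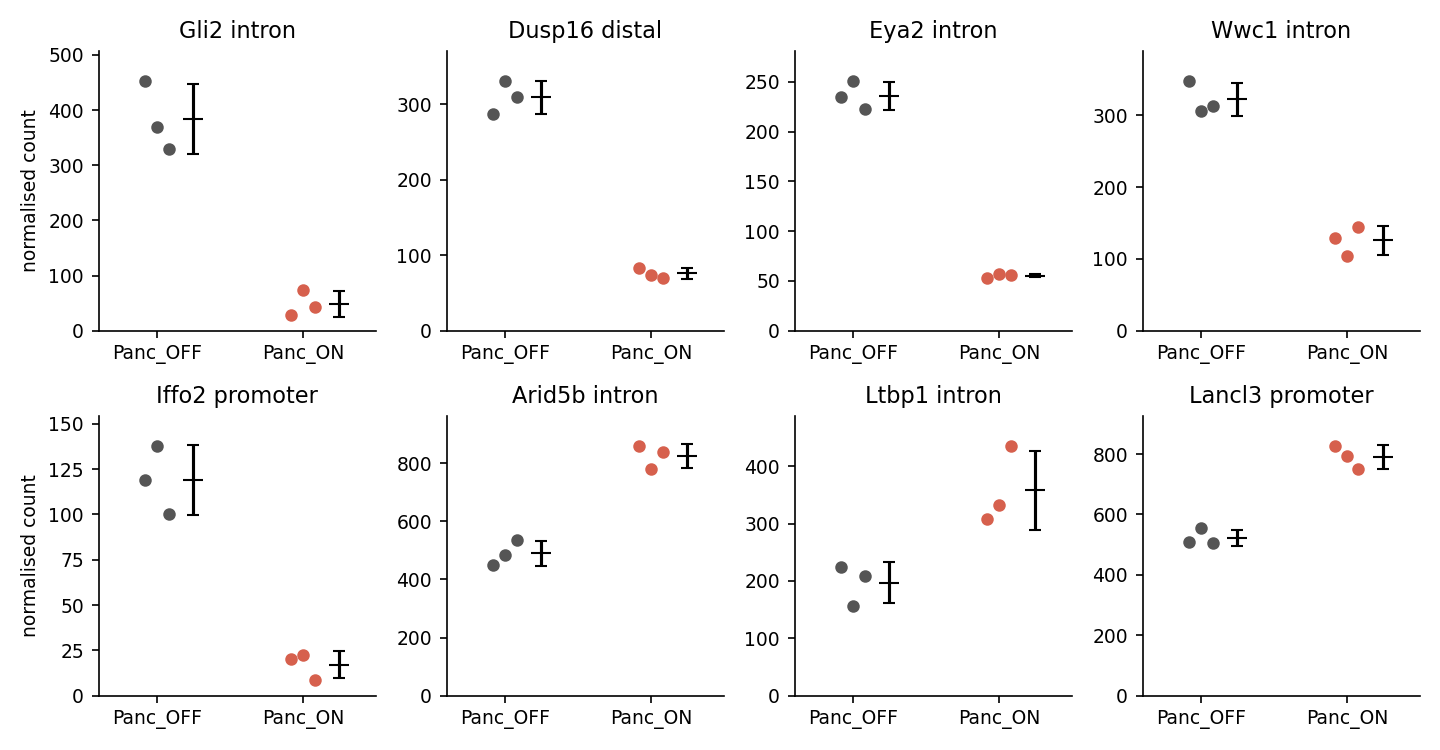
Normalised counts (y axis, from 0) of 8 named peaks in each of the 3 Panc_OFF (gray) and 3 Panc_ON (red) samples, with the mean and SD beside the points. All peaks except that of Iffo2 were picked among calls whose groups do not overlap, so the separation in those panels was fixed by the choice. The Gli2 intron falls from a lowest value of 330 to a highest of 74.3.

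Promoters (peaks within 1000 bp of a start site) were called 358 times lower and 10 times higher. The promoter peak of Iffo2, an intermediate filament family gene, was the steepest of the 6 named, from 119, 138 and 100 to 20.4, 22.3 and 8.43 (-2.83 ± 0.38). Slc39a4, whose product imports zinc, went from 1510, 1590 and 1330 to 806, 629 and 816 (-0.98 ± 0.15). P2ry2, a nucleotide receptor, went from 239, 255 and 222 to 104, 102 and 97.3 (-1.23 ± 0.18). Cidec, a lipid droplet protein, fell by 1.14 ± 0.16 on the log2 scale, the tubulin gene Tuba3a by 1.19 ± 0.17 and Prr15l by 1.38 ± 0.21. Limma adjusted p was at most 0.0105 for these 6, and each stayed called without any 1 mouse.

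Lower calls clustered at some genes. A lower call was assigned to 2529 of the 17797 genes with a peak within 100 kb, 685 genes had at least 2 and 49 had at least 5. Higher calls were assigned to 292 genes, 21 of them with at least 2 and 0 with at least 5, and 57 genes had calls in both directions. Gli2 and Wwc1 led, each with 10 lower calls, of 26 and 27 peaks. At Gli2 the promoter peak itself went from 1050, 957 and 1020 to 644, 493 and 346 (-1.07 ± 0.19, adjusted p = 0.0157), and the calls ran from there downstream, while peaks upstream of the start site were not called. At Wwc1 24 of 27 peaks had a negative log2 fold change and the promoter value was -0.54 ± 0.18 (adjusted p = 0.133).

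Wnt4, a Wnt ligand, had 7 lower calls of 16 peaks including the promoter, which went from 929, 1100 and 864 to 331, 350 and 413 (-1.40 ± 0.23, adjusted p = 0.0115). Tmprss2, an epithelial serine protease gene, had 7 of 32, its promoter included (-1.01 ± 0.21, adjusted p = 0.0257, but 0.133 without Panc_OFF_2). Kalrn, a guanine nucleotide exchange factor, had 9 of 53, the one of smallest p an intronic peak that went from 214, 212 and 224 to 39.1, 65.6 and 64.4 (-1.96 ± 0.30). A Kalrn promoter peak was called as well (-0.97 ± 0.24, adjusted p = 0.0535), but in 1 of 6 omissions of a mouse. At the remaining genes distal peaks were called and the start site was not. Pdcd4, an inhibitor of translation, had 7 lower calls of 17, the one of smallest p lying in an intron of Rbm20. Zfp36l2, an RNA-binding protein that destabilizes mRNA, had 7 of 38. Foxp1, a forkhead factor, had 7 of 92, but only 46 of the 92 were below 0 (median 0.0). Lmod3, a muscle actin nucleator gene, had 8 of 15, the one of smallest p lying in an intron of Frmd4b, and Eya2 had 6 of 18. The number of peaks near a gene sets how many can be called, and peaks at 1 gene are not independent.

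**Figure D3:**
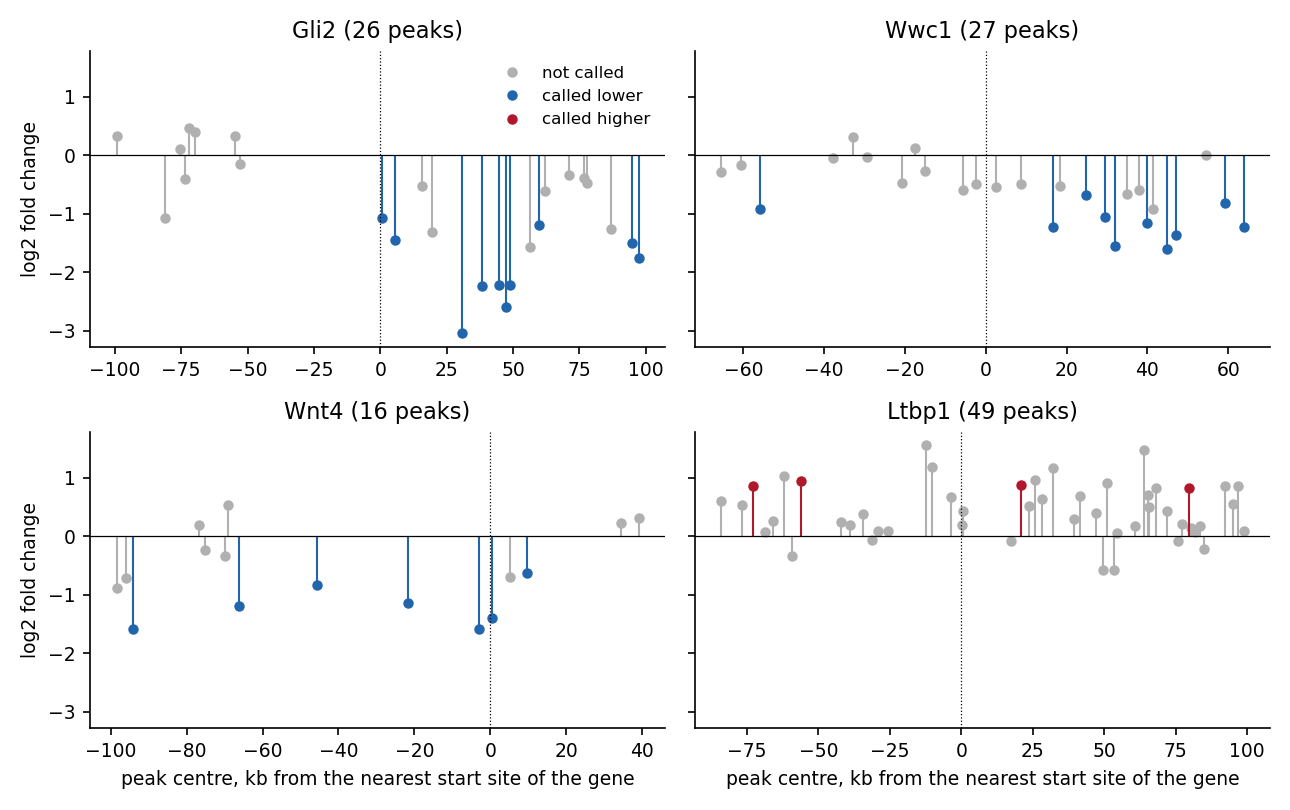
Log2 fold change of Panc_ON over Panc_OFF (y axis) for each peak assigned to Gli2, Wwc1, Wnt4 and Ltbp1, by the distance of its centre from the nearest start site of that gene in kb (x axis, positive downstream). Blue points are lower calls and red points higher calls; the 10 calls at Gli2 lie at or downstream of its start site, and the 4 calls at Ltbp1 lie on both sides of it.

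Gains were fewer and often far from genes. Of the 10 higher peaks of smallest p, again taken among calls without overlap, 4 had no start site within 100 kb. The first of these (chromosome 15, 51411822 to 51412654) went from 73.4, 59.0 and 58.3 in Panc_OFF to 235, 246 and 202 in Panc_ON (1.83 ± 0.28, adjusted p = 0.0105). Another, on chromosome 4 (64952547 to 64953247), went from 29.9, 18.8 and 11.1 to 51.6, 85.4 and 113 (2.05 ± 0.35, adjusted p = 0.0149). The others were weaker, on chromosome 12 at 6.83 to 10.2 against 28.4 to 40.6 and on chromosome 17 at 0.926 to 2.68 against 12.4 to 19.9, the Panc_OFF values on chromosome 17 being 1 to 3 reads.

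Near genes, Ltbp1, which holds latent TGF-beta in the matrix, had the most higher calls, 4 of its 49 peaks. Its intronic peak of smallest p went from 225, 157 and 209 to 308, 332 and 436 (0.86 ± 0.17, adjusted p = 0.0234, and 0.143 without Panc_OFF_2). The Ltbp1 promoter gave 0.19 ± 0.11 (adjusted p = 0.374). Arid5b, a chromatin regulator, had an intronic peak at 450, 484 and 535 against 860, 779 and 837 (0.75 ± 0.14, adjusted p = 0.0195). The exonic peak nearest BC035947 (0.65 ± 0.12), an intronic peak of Rrp15, a ribosome biogenesis gene (0.94 ± 0.19), and one of Bcar3, an adaptor in integrin and growth factor signaling (0.60 ± 0.12), rose with adjusted p of at most 0.0246. Of the 10, the gene-free peaks on chromosomes 15, 17 and 4 kept their call without any 1 mouse, and the other 7 lost it without at least 1.

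Zfp462, a zinc finger gene, and Magi3, a scaffold protein gene, had 3 higher calls each, Magi3 beside 2 lower ones. Syk, a tyrosine kinase gene, and Tm4sf4, a tetraspanin-like gene, had 2 each, and Stard13, a GTPase-activating protein gene, had 2 beside 1 lower. The peak 61802 bp from Syk stood at 890, 844 and 799 against 1430, 1270 and 1410 (0.70 ± 0.15, adjusted p = 0.032). At Zfp462 the promoter stood at 822, 545 and 768 against 1420, 1090 and 1100 (0.77 ± 0.23, adjusted p = 0.0976), a call that each omission of a mouse removed. The promoter of Lancl3 went from 510, 554 and 504 to 828, 794 and 750 (0.60 ± 0.12, adjusted p = 0.0213), just inside the fold threshold and called in 3 of 6 omissions. The promoters of 1700057G04Rik (1.02 ± 0.23), Zfp13 (0.89 ± 0.22), Tmem47 (1.72 ± 0.46) and Prom2, the last at 0.854 to 5.36 against 10.7 to 13.6, had adjusted p between 0.0375 and 0.0725. They were called in 3, 2, 0 and 1 of 6 omissions. A peak of 23692 bp at Gm21887, inside Mid1 on chromosome X, rose by 1.00 ± 0.25 (called in 2 of 6 omissions), with reads that may be shared with copies of that region.

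By position, gains were the more distal set. Promoters made up 10.8% of all peaks, 8.57% of lower calls and 2.01% of higher calls. Intergenic peaks made up 45.1% of all, 42.8% of lower and 59.8% of higher calls, and introns 38.3%, 39.1% and 33.9%. Exons held 5.80% of all peaks, 9.50% of lower and 4.22% of higher calls. The median distance to a start site was 19727 bp for lower calls, 53282.5 bp for higher calls and 26833.5 bp for all peaks, and 12.7%, 36.3% and 21.0% had no start site within 100 kb. Lower calls were wider (median 995 bp) than higher calls (717 bp) and all peaks (588 bp), and richer in GC (47.9% against 41.8% and 45.8%). Among chromosomes, the share of peaks called lower was highest on 19 (5.16%) and 4 (5.01%) and lowest, among those with a lower call, on X (1.72%) and 18 (1.74%).

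**Figure D4:**
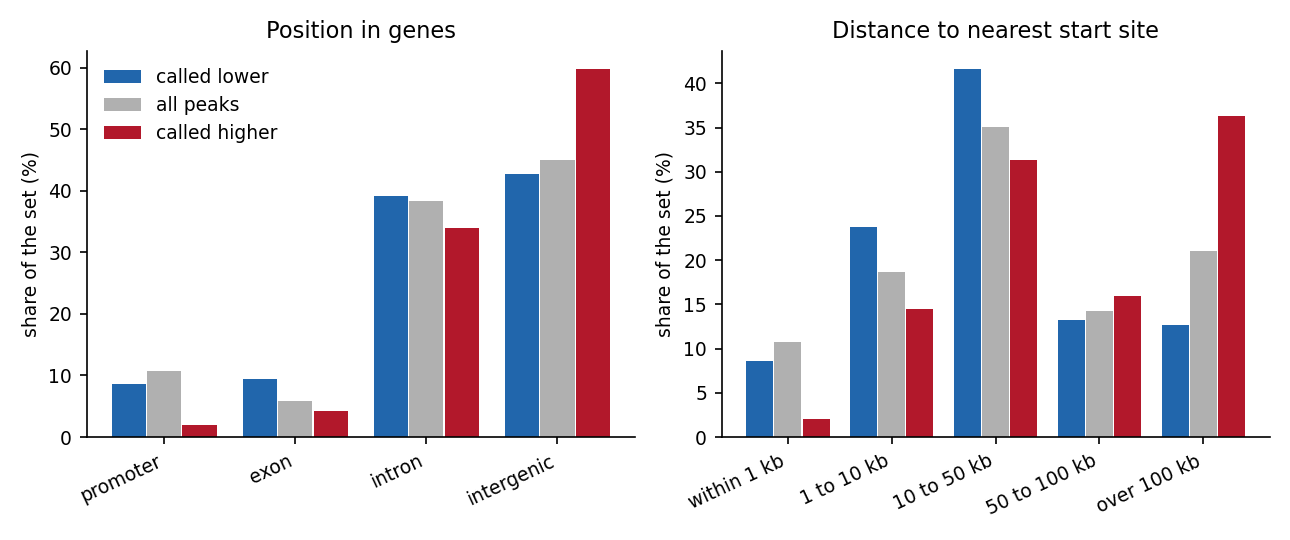
Share of lower calls (blue), all nuclear peaks (gray) and higher calls (red) in percent (y axis) by position in genes (left) and by distance to the nearest start site of a protein-coding gene (right). The red bar exceeds the gray bar most beyond 100 kb (36.3% against 21.0%), where the blue bar is lowest relative to it (12.7%).

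Motif letters were sought on both strands within 200 bp at the middle of every peak. AP-1 letters (TGANTCA) stood in 28.1% of all peaks, in 10.2% of lower calls and in 45.8% of higher calls. The deficit in lower calls was seen in introns (10.0% against 30.1% of all intronic peaks), between genes (10.7% against 32.0%) and in exons (12.6% against 26.2%), but not at promoters (6.15% against 6.10%). It was also seen in each GC class up to 55%, for example 11.0% of lower calls against 33.1% of all peaks at a GC content of 40% to 45%. The excess in higher calls shrank without Panc_ON_3. Without that mouse AP-1 letters stood in 31.9% of higher and 13.5% of lower calls. Over all peaks with AP-1 letters, the level relative to peaks without them was 0.35 (log2 median difference) in Panc_ON_3, 0.10 in Panc_ON_2 and 0.01 in Panc_ON_1, against -0.12, -0.18 and -0.11 in Panc_OFF.

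HNF4 letters (CAAAGTCCA) stood in 0.794% of all peaks, 1.68% of lower and 1.20% of higher calls, the last share being 6 peaks. The median log2 fold change was -0.27 for peaks with HNF4 letters, against 0.04 for those without. KLF letters (CCNCNCCC) stood in 20.9% of all peaks, 25.3% of lower and 9.84% of higher calls. With a GC correction the KLF shares were 21.1% of lower and 15.8% of higher calls. At promoters alone KLF letters stood in 38.0% of lower calls and 44.7% of all peaks. RUNX letters (TGTGGT) stood in 19.8%, 16.9% and 18.5%. The SMAD site CAGAC stood at 39.8% of all peaks, 39.2% of lower and 40.4% of higher calls, and the palindromic SMAD site GTCTAGAC stood in 0.234%, 0.0718% and 0.602%, the last shares being 3 peaks each. The ETS family was searched under a pair of spellings, CCGGAAG being one of them. Its other spelling differed at the second base, CAGGAAG, and either stood in 11.3% of all peaks, 12.9% of lower and 6.22% of higher calls. FOX letters (TGTTTAC) stood in 4.41% of all peaks, 5.36% of lower and 2.61% of higher calls. For TEAD letters (ACATTCC) the same shares were 4.90%, 5.72% and 5.42%. GATA letters (AGATAA), which mark binding sites of another endodermal family, stood in 11.8%, 13.6% and 14.1%. Last, letters of part of the CTCF site (AGGNGGC) stood in 13.3%, 14.9% and 7.23%. Letters in a window do not show that a factor was bound.

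**Figure D5:**
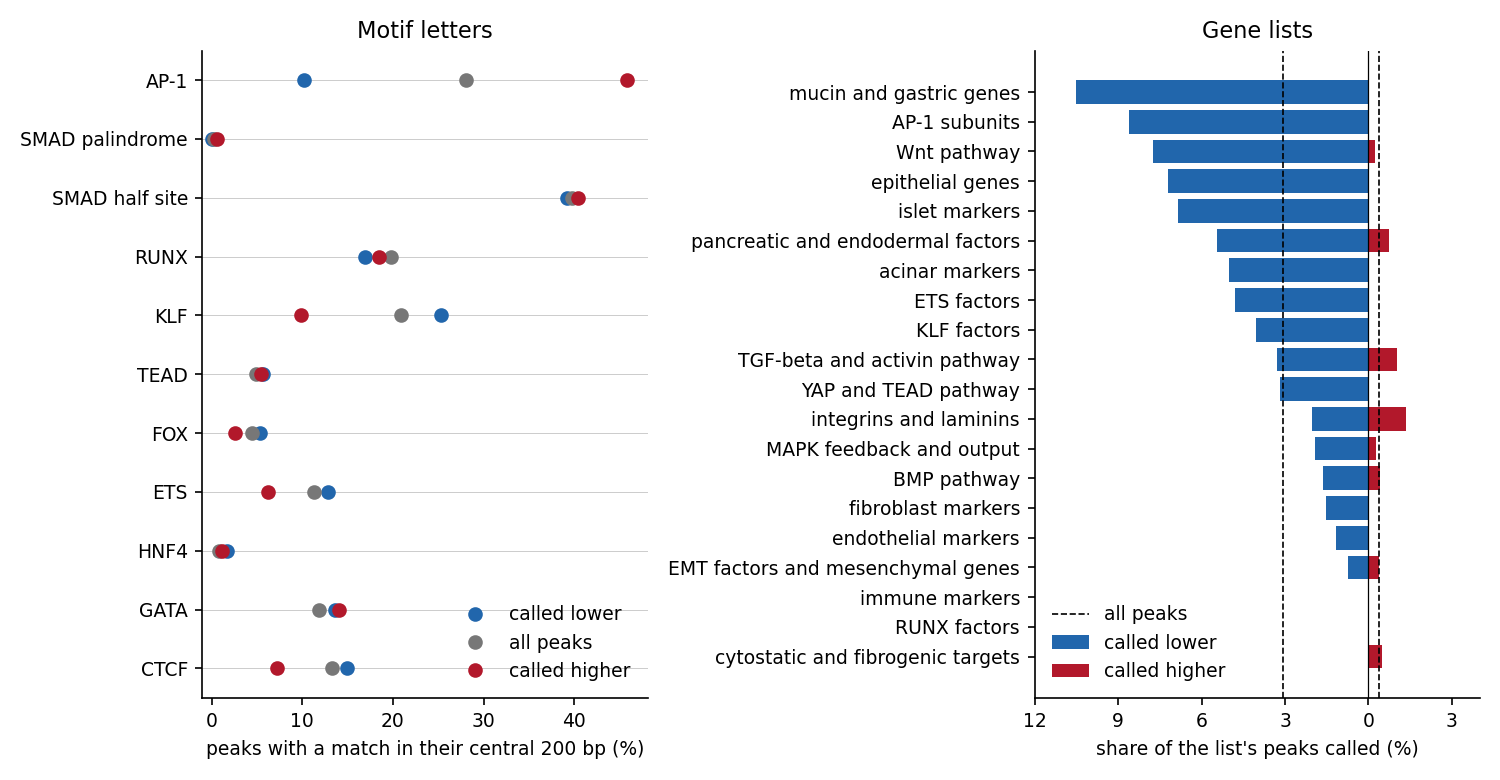
Left, points give the percentage of lower calls (blue), all peaks (gray) and higher calls (red) with each motif's letters in the central 200 bp. Right, percentage of each gene list's peaks called lower (blue, to the left) or higher (red, to the right), with dashed lines at the shares of all peaks, 3.06% and 0.364%. AP-1 letters separate the 3 sets most, and mucin and gastric genes have the highest share of lower calls, 10.5%.

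Genes were then read by function, each list by its peaks called lower or higher beside the 3.06% and 0.364% of all peaks. The lists were chosen with earlier results of these data known, so their shares and order only describe the calls. The TGF-beta and activin pathway (31 genes, 485 peaks) had 16 lower (3.30%) and 5 higher calls (1.03%), the share of lower calls being near that of all peaks. Of the 5 higher calls, 4 were at Ltbp1 and 1 at Nedd4l. Receptor genes were among those with lower calls. A peak 13679 bp from Tgfbr3, the co-receptor betaglycan, went from 192, 276 and 253 to 92.4, 74.3 and 120 (-1.33 ± 0.22, adjusted p = 0.0124). A peak 13337 bp from Tgfbr2, the type II receptor, went from 252, 258 and 200 to 96.9, 92.8 and 98.9 (-1.28 ± 0.28, adjusted p = 0.0333). Nedd4l, a ubiquitin ligase that acts on Smad2 and Smad3, had an intronic peak at 582, 642 and 577 against 358, 288 and 301 (-0.93 ± 0.18, adjusted p = 0.0208). It had 2 lower calls beside its higher one, and 25 of its 51 peaks were below 0 (median 0.06). The inhibitory Smad genes Smad6 and Smad7, Smad3, Skil, Acvr1b and Ldlrad4 had a called peak as well.

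Targets tied to growth arrest and matrix production held few calls. Of 204 peaks at 18 cytostatic and fibrogenic target genes, limma called 0 lower and 1 higher, at the hyaluronan synthase gene Has2. At an unadjusted p under 0.05, 15 were lower and 19 higher, edgeR called 0 and 1, and DESeq2 1 and 6. The BMP pathway had 4 lower and 1 higher of 242. RUNX factor genes had no limma call among 128 peaks (8 lower and 9 higher at an unadjusted p under 0.05, 0 by edgeR and 2 lower by DESeq2). KLF factor genes had 8 lower calls of 197 (4.06%), over 7 genes. Klf4 had 1 of 20, a distal peak at 190, 165 and 171 against 72.0, 73.0 and 91.2 (-1.15 ± 0.24, adjusted p = 0.027, and 0.112 at the highest when a mouse was left out), while its promoter gave -0.05 ± 0.08. The peak nearest the Runx1 start site gave -0.03 ± 0.09 (adjusted p = 0.902). The sign of both start-site values changed with scaling (0.02 each under quantile normalisation). Another Runx1 promoter peak, that of smallest p at the gene, went from 1560, 1670 and 1540 to 2120, 1790 and 1920. It was not called (0.29 ± 0.09, limma adjusted p = 0.11). Of 54 Runx1 peaks, 14 were below 0 (median 0.23).

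Of the 20 lists, mucin and gastric genes had the highest share of lower calls, 11 of 105 peaks (10.5%) over 8 genes, with 0 higher and a median log2 fold change of -0.29 against 0.04 for all peaks. The promoter of Tff2, a gastric trefoil factor, went from 325, 343 and 315 to 80.0, 105 and 116 (-1.71 ± 0.27, adjusted p = 0.0109). That of the gel-forming mucin gene Muc5b went from 131, 143 and 105 to 37.3, 35.9 and 53.7 (-1.56 ± 0.30, adjusted p = 0.0208), and that of the gastrokine gene Gkn3 from 53.8, 55.4 and 41.7 to 25.8, 16.1 and 11.5 (-1.51 ± 0.39, adjusted p = 0.0588). Agr2, which folds mucins, had 3 lower calls of 14. Muc1, Muc4, Muc5ac and Tff3 had a lower call too.

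Epithelial genes had 16 lower calls of 222 (7.21%) over 11 genes and 0 higher, with a median of -0.21. They included the keratin genes Krt8, Krt18 and Krt19, and Cdh1, the gene for E-cadherin, whose intronic peak went from 752, 637 and 615 to 332, 322 and 297 (-1.07 ± 0.20, adjusted p = 0.0174). Grhl2, a grainyhead factor of epithelia, had 4 of 27, the strongest from 70.0, 66.1 and 58.3 to 17.8, 23.5 and 19.2 (-1.64 ± 0.29). However, 10 of the 27 Grhl2 peaks were below 0, and their median log2 fold change was 0.16. The Grhl2 start site gave 0.45 ± 0.34 (limma adjusted p = 0.537). Dsp (desmoplakin) had 2 of 14, and the promoter of Cdh3 (P-cadherin) went from 266, 355 and 220 to 171, 123 and 146 (-0.92 ± 0.26, adjusted p = 0.0801, a call each omission removed). Among EMT factors and mesenchymal genes, 2 of 273 peaks were lower and 1 higher, with a median of 0.28. The balance turned in other readings, with 6 lower and 32 higher at an unadjusted p under 0.05, 4 and 17 by DESeq2, and 2 and 10 with the pancreas groups fitted alone. Tcf4, an E-protein gene, held the higher call and 1 of the lower ones, and 39 of its 53 peaks were not below 0. Its lower call was a peak that went from 242, 232 and 240 to 96.9, 99.0 and 102 (-1.25 ± 0.23, adjusted p = 0.0173).

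Pancreatic and endodermal factor genes had 15 lower (5.45%) and 2 higher of 275. A peak 80000 bp from Gata4 went from 471, 482 and 446 to 180, 154 and 132 (-1.59 ± 0.23, adjusted p = 0.00963), and one 76690 bp from Foxa2 from 156, 183 and 170 to 60.4, 60.7 and 76.6 (-1.36 ± 0.27, adjusted p = 0.0217). ETS factor genes had 11 lower (4.80%) and 0 higher of 229, 8 of them at the epithelial factors Ehf (5) and Elf3 (3). The Elf3 promoter went from 3060, 3020 and 2740 to 1910, 1570 and 1860 (-0.73 ± 0.13, adjusted p = 0.0179), and an intronic peak of Ehf from 789, 781 and 620 to 411, 427 and 348 (-0.88 ± 0.17, adjusted p = 0.0192).

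The Wnt pathway had 35 lower (7.76%) and 1 higher of 451 peaks. The lower calls were spread over 14 genes, with 7 at Wnt4. Tcf7l2, a nuclear effector, had 5 of 52, Lrp5, a co-receptor, 5 of 14, and Rnf43, a ligase that removes Wnt receptors, 4 of 15. The strongest of Lrp5 went from 223, 396 and 288 to 128, 129 and 117 (-1.24 ± 0.27, adjusted p = 0.0312). Genes for AP-1 subunits had 10 lower (8.62%) and 0 higher of 116. Examples were peaks 20706 bp from Fos (828, 882 and 790 against 487, 477 and 504, -0.77 ± 0.18, adjusted p = 0.0441) and 81307 bp from Jun (167, 174 and 157 against 57.8, 76.8 and 61.3, -1.34 ± 0.31, adjusted p = 0.0378), called in 1 and 2 of 6 omissions. Their promoters gave -0.19 ± 0.11 (adjusted p = 0.41) and -0.04 ± 0.11 (0.896). At Fos 15 of 18 peaks were below 0 (median -0.30), but at Jun 8 of 20 were (median 0.28). In the mucin, epithelial, ETS and AP-1 subunit lists, where limma called 0 peaks higher, 6, 4, 11 and 8 peaks were higher at an unadjusted p under 0.05, and edgeR called 0 in each and DESeq2 1, 0, 3 and 3. The YAP and TEAD pathway (7 lower of 221) and MAPK feedback and output genes (7 lower and 1 higher of 361) were near or under the share of all peaks. Tead1 had a lower intronic peak (38.4, 40.2 and 43.5 against 8.89, 16.1 and 5.37), and the higher call at Ereg, an EGFR ligand gene, was 1.17 ± 0.28 (adjusted p = 0.044).

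Integrins and laminins had 6 lower (2.03%) and 4 higher (1.35%) of 296. Itgb1, the common beta subunit, had 2 higher calls, the stronger at 469, 553 and 470 against 929, 940 and 1150 (1.01 ± 0.26, adjusted p = 0.0591, called in 0 of 6 omissions). Lamc1, a laminin chain gene, had an intronic peak at 405, 374 and 375 against 636, 574 and 530 (0.59 ± 0.12, adjusted p = 0.026, called in 3 of 6 omissions). Itgb6 had a call in each direction, its promoter at 58.9, 96.5 and 63.9 against 45.3, 22.3 and 38.3 and an intronic peak at 770, 835 and 747 against 1100, 1040 and 1530, called in 0 and 1 of 6 omissions. Without Panc_ON_3, lower calls were 11 in the mucin, 17 in the epithelial, 14 in the endodermal, 14 in the ETS, 35 in the Wnt and 8 in the AP-1 subunit list, and the higher calls at integrins and laminins were 2. The other omissions cut these lists more. Without Panc_OFF_2, lower calls were 2 in the mucin, 3 in the epithelial, 2 in the endodermal, 1 in the ETS, 4 in the Wnt and 1 in the AP-1 subunit list, and without Panc_OFF_1 the AP-1 subunit list had 0.

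Markers of cells that a sort could carry over were read the same way. Over their start-site peaks, the summed normalised count of 12 fibroblast genes was 1800 to 2980 in Panc_OFF and 1590 to 3740 in Panc_ON, and of the immune genes with a peak (9 of 15) 701 to 830 and 713 to 1040. Endothelial sums were 847 to 923 and 835 to 1040, and each of these 3 pairs of ranges overlapped. Acinar sums were 706 to 771 and 777 to 942, the Panc_ON values being higher without overlap, and islet sums 1500 to 1650 and 1500 to 2380. Lower calls were 2 of 131 at fibroblast, 0 of 33 at immune (3 lower and 2 higher at an unadjusted p under 0.05, 0 by edgeR and 1 higher by DESeq2), 1 of 86 at endothelial, 2 of 40 (5.00%) at acinar and 5 of 73 (6.85%) at islet genes, the last 2 shares being above the 3.06% of all peaks. However, those shares rest on few genes. Both acinar calls were at Ctrb1, and 4 of the 5 islet calls were at Chga. The Chga peak of smallest p lay 66595 bp from its start site, in an intron of Itpk1. The sums of epithelial genes were 28800 to 33300 in Panc_OFF and 21200 to 26500 in Panc_ON, and those of mucin and gastric genes 5910 to 6920 and 3910 to 4590, both without overlap. Single peaks lacked overlap at 13.3% (Panc_ON lower) and 12.2% (higher) of all peaks, and no such share was made for sums. Wide peaks count more in a sum. In the epithelial sum the Cdh1 peak of 22337 bp alone held a mean of 5190 in Panc_OFF. In such bulk samples fewer cells open at a peak and less opening per cell cannot be told apart.

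The same fit held liver and lung tumors of the same kind of cells, seeded by injection into the spleen or the tail vein of hosts on Dox. Liver hosts of the Smad4 ON groups left Dox after 5 weeks and lung hosts after 6, while the OFF hosts stayed on it, so the organ cannot be told apart from the route and the time on Dox. Restoration called 752 peaks in the liver (0.55%; 2 against 2 mice) and 5 in the lungs (0.00366%; 3 against 3). The peaks called lower in the pancreas had a liver median log2 fold change of -0.43 and a lung median of -0.10, and for the higher calls these were 0.70 and 0.14. Of the 4177 lower calls, 58 passed as lower in liver too and 3 in lungs. Of the 498 higher calls, 40 passed as higher in liver and 0 in lungs. As a base, 629 of the 131955 peaks not called in the pancreas passed in liver with the sign of their pancreas value. For lungs that number was 2. The shares passing in liver were thus larger among pancreas calls of either direction than among uncalled peaks. The Gli2 promoter was a lower call that passed in each organ, with -2.05 in the liver (limma adjusted p = 0.00791) and -1.59 in the lungs (0.0326). The Wnt4 promoter was -1.40 in the pancreas, -0.54 in the liver (adjusted p = 0.452) and 0.12 in the lungs (0.967). Lung replicates were not always close. In Lung_OFF_1, Lung_OFF_2 and Lung_OFF_3 the Wnt4 promoter stood at 587, 1370 and 1200, and the Gli2 promoter at 792, 926 and 1020. The part of such spread in the low number of lung calls was not tested. As to whether the effects differed, the interaction of organ and restoration was called by limma at 0 peaks for liver minus pancreas (5403, 3.95%, at an unadjusted p under 0.05; 0 by edgeR and 25 by DESeq2) and at 0 for lungs minus pancreas (14973, 11.0%; 0 by edgeR and 2255 by DESeq2). Peaks with AP-1 letters had a higher median in the pancreas (0.27 with and -0.03 without) and in the liver (0.33 and -0.08), and less so in the lungs (0.05 and -0.02).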

How the data were processed

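ATAC-seq of sorted mKate2-positive tumor cells (60000 per sample by the study's methods) was analyzed from 1 table of 136631 rows, 1 of them mitochondrial and left out of tests. The signal values, per the file headers and the study's methods, are normalised counts that the authors made by trimming (Trim Galore, cutadapt), alignment to mm10 (Bowtie2), peak calling (MACS2), merging of peaks into 1 atlas, counting (featureCounts) and division by DESeq2 size factors. The filter applied to that table, transposase shifting and duplicate removal are not given in the sources used here. Every value returned a whole read number within 0.01 read, so the depth is known.

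Values were tested as log2(value + 1) with limma 3.58.1 (trend and robust, R 4.3.3), 6 group means over all 16 samples and Benjamini-Hochberg adjustment over 136630 peaks, so fold changes of weak peaks are understated. Each peak was given to the nearest protein-coding start site within 100 kb (GENCODE release M21). Named peaks were the 10 of smallest p in each direction without overlap between groups, up to 6 promoters in each direction, genes with the most called peaks, and up to 4 genes in each of 20 lists, with Smad4, Klf4 and Runx1. The members and lists were chosen with earlier results of these data known. Alternatives included edgeR 4.0.16 and DESeq2 1.42.0 on recovered reads, other scalings, filters and thresholds, a GC correction, a replicate block and omission of each mouse. The tests were also run on simulated data. Replicates were separate mice, and no pair agreed within sampling noise. Some genes, an allele and a motif are not reported here.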

Additional observations from a re-analysis of the deposited data

How the results depend on the processing

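Under 18 other settings lower calls outnumbered higher calls, and in none did a called peak change sign, but the counts moved. Called peaks numbered 8283 with quantile normalisation (6919 lower, 1364 higher), 9294 with DESeq2 (6673 and 2621) and 1514 at thresholds of 1 and 0.05 (1469 and 45). Leaving out 1 pancreas mouse gave 453 to 4878 calls, 443 to 4471 lower and 10 to 407 higher, lowest without Panc_OFF_2. Higher calls were 2099 when the pancreas groups were fitted alone and 330 with a GC correction. The replicate numbers gave no sign of pairing, since same-numbered deviations from the group mean correlated at -0.33, 0.027 and -0.33. Differently numbered ones correlated at -0.114 to 0.363, and pairing in another order was not tested. With the replicate block 6448 peaks were called, 1273 of them higher, and with the GC correction and the block 5518, 923 of them higher. The cause of these shifts was not tested, and the omissions also left fewer samples.

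For the difference between liver and pancreas, DESeq2 called 25 peaks and the other settings 0. For lungs against pancreas it called 2255, the replicate block 248, quantile normalisation 1, and omissions of a pancreas mouse 0 to 1. Of the 90 named called peaks, 35 stayed called in all 6 omissions and 9 in none. Near 0 and uncalled, the start-site log2 fold changes took the other sign at Smad4 (0.08 with the GC correction, with or without the block), at Klf4 (0.02 with quantile normalisation, 0.07 with the GC correction, with or without the block, and -0.13 to 0.02 over omissions) and at Runx1 (0.02, 0.13 and -0.12 to 0.02 likewise). Depth (a median of 47 to 76 reads per peak in a pancreas sample) limits weak peaks most, including many higher calls.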
